A study of Mus musculus with 52 samples.

Results

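The 48 genes described here make up the cell cycle and DNA replication machinery of dividing mouse cells, and they were taken by gene symbol from a merged count table of 57010 identifiers, in which all 48 were found. They were held as 21 replication members (Rrm1, Rrm2, Ccne1, Ccne2, Cdc45, Cdc6, Cdt1, Mcm2, Mcm3, Mcm4, Mcm5, Mcm6, Mcm7, Mcm10, Pcna, Gins2, Tk1, Tyms, E2f1, E2f8 and Uhrf1) and 27 mitotic members (Mki67, Top2a, Ccna2, Ccnb1, Ccnb2, Cdk1, Cdc20, Bub1, Bub1b, Aurka, Aurkb, Plk1, Kif11, Kif20a, Kif23, Cenpa, Cenpe, Cenpf, Birc5, Tpx2, Nusap1, Prc1, Ube2c, Hmmr, Foxm1, Mybl2 and Melk). RNA was sequenced from hCD40tg mice, whose genome holds human CD40, bearing tumors of the colon carcinoma line MC38 made to carry CEACAM5. The mice received ATOR-4066, a bispecific antibody that binds CD40 and CEACAM5, or CD40 mAb, an antibody against CD40 alone, or vehicle. The human transgene and the tumor line were shared by all 3 treatments. Neither the age, sex or strain background of the mice nor the transgene promoter, the doses or the time of sampling is stated in the labels.

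Libraries came from 4 materials. Sorted cells were CD45+ Ly6G- leukocytes taken from tumors, a gate that leaves neutrophils out, with 3 ATOR-4066, 3 CD40 mAb and 4 vehicle libraries. Whole tumor gave 4, 5 and 4 libraries in that order of treatments. There were 5, 4 and 4 from lymph node and 4, 5 and 5 from blood. By the animal numbers of the titles, tumor, lymph node and blood shared animals and the sorted cells came from others. Total estimated counts, in mega-counts (M), ran from 30.2 to 47.5 M in sorted cells, from 47.4 to 64.2 M in tumor, from 46.3 to 138.5 M in lymph node and from 33.5 to 44.1 M in blood, with a haemoglobin share of 69.8 to 88.2 percent in blood. A pair of libraries was left out because markers went against the label. The library labelled lymph node vehicle 3 had 0.564 CPM (a gene's count scaled to the size of its library) of the B cell gene Cd79a, against 826 ± 136 CPM in the other vehicle lymph nodes (SD, n = 4), and the library labelled tumor ATOR-4066 3 had 711 CPM of it. Markers of tumor epithelium were low in whole tumors, with summed levels of 5.53 to 46.03 CPM in ATOR-4066, 6.64 to 377 CPM in CD40 mAb and 11.7 to 38.7 CPM in vehicle libraries.

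A cell that divides first licenses its replication origins, when Cdc6 and Cdt1 load the Mcm2 to Mcm7 helicase ring onto DNA, and then copies its genome with nucleotides supplied by ribonucleotide reductase, thymidylate synthase and thymidine kinase. E2F factors switch these replication genes on as cells leave G1. Later, B-Myb and FoxM1 complexes switch on the genes of mitosis, which condense chromosomes, build the spindle, attach kinetochores and divide the cell. In an immune response these genes mark clonal expansion of lymphocytes, and in a tumor the growth of the cancer cells as well. In blood their RNA can also come from immature red cells.

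Promoter windows from 250 bases before to 50 bases after a gene start were available from RefSeq (GRCm38.p6) for 40 of the 48 members, as 20 windows of 18 replication members and 23 windows of 22 mitotic members. Ccne2, Mcm4, Gins2, Ccna2, Aurkb, Kif20a, Tpx2 and Foxm1 had no entry. The windows were searched on both strands for an E2F motif (TTTCCCGC, TTTCGCGC, TTTGCCGC or TTTGGCGC), for the cell cycle homology region or CHR (TTTGAA or TTCGAA) and for CCAAT. The E2F letters were in 7 of 20 replication windows (35.0%, in Cdc6, Cdt1, Mcm3, Mcm5, Mcm6, Mcm7 and Uhrf1), in 1 of 23 mitotic windows (4.35%, Cdk1) and in 2.26% of all 32851 windows. The CHR letters were in 20.0% of replication windows, 73.9% of mitotic windows and 19.2% of all windows. Windows with both CHR and CCAAT made up 20.0% of the replication, 73.9% of the mitotic and 7.52% of all windows. CCAAT, with or without CHR, was in 70.0% of replication, 82.6% of mitotic and 37.4% of all windows. A match describes letters in a window and is no evidence of binding. One window of each kind is printed because it shows the letters on which the 2 sets differ, with the motif in capitals. The Mcm5 window lies on the + strand at chr8:75109259-75109558, and its capitals hold TTTCGCGC on the printed strand and, overlapping it, TTTGGCGC on the other strand. The Mki67 window lies on the - strand at chr7:135716330-135716629, and its capitals are 2 copies of TTTGAA.
Mcm5: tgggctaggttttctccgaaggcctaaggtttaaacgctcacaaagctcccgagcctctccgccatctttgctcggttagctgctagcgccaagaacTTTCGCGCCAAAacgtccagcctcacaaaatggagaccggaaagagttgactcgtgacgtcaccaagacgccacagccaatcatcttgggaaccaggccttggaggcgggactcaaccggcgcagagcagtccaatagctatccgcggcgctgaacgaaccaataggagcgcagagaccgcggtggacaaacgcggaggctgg
Mki67: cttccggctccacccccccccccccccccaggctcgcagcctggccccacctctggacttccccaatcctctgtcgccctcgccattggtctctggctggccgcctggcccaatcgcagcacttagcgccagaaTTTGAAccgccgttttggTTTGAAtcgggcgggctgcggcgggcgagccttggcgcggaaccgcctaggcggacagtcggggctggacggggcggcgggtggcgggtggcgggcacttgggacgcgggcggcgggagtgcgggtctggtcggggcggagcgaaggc

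Levels below are CPM on library sizes scaled by the TMM method, given library by library in order of animal number, and are compared between libraries of 1 gene and never between genes. Changes are log2 fold changes with their standard error (SE) from edgeR's quasi-likelihood test, and a gene is called at a Benjamini-Hochberg adjusted p under 0.05 over all genes tested in that comparison. Both drugs were compared with the same vehicle libraries of a material, so their results against vehicle are not independent. In any of these bulk libraries, fewer cells of a type and less RNA per cell cannot be told apart.

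**Figure D1:**
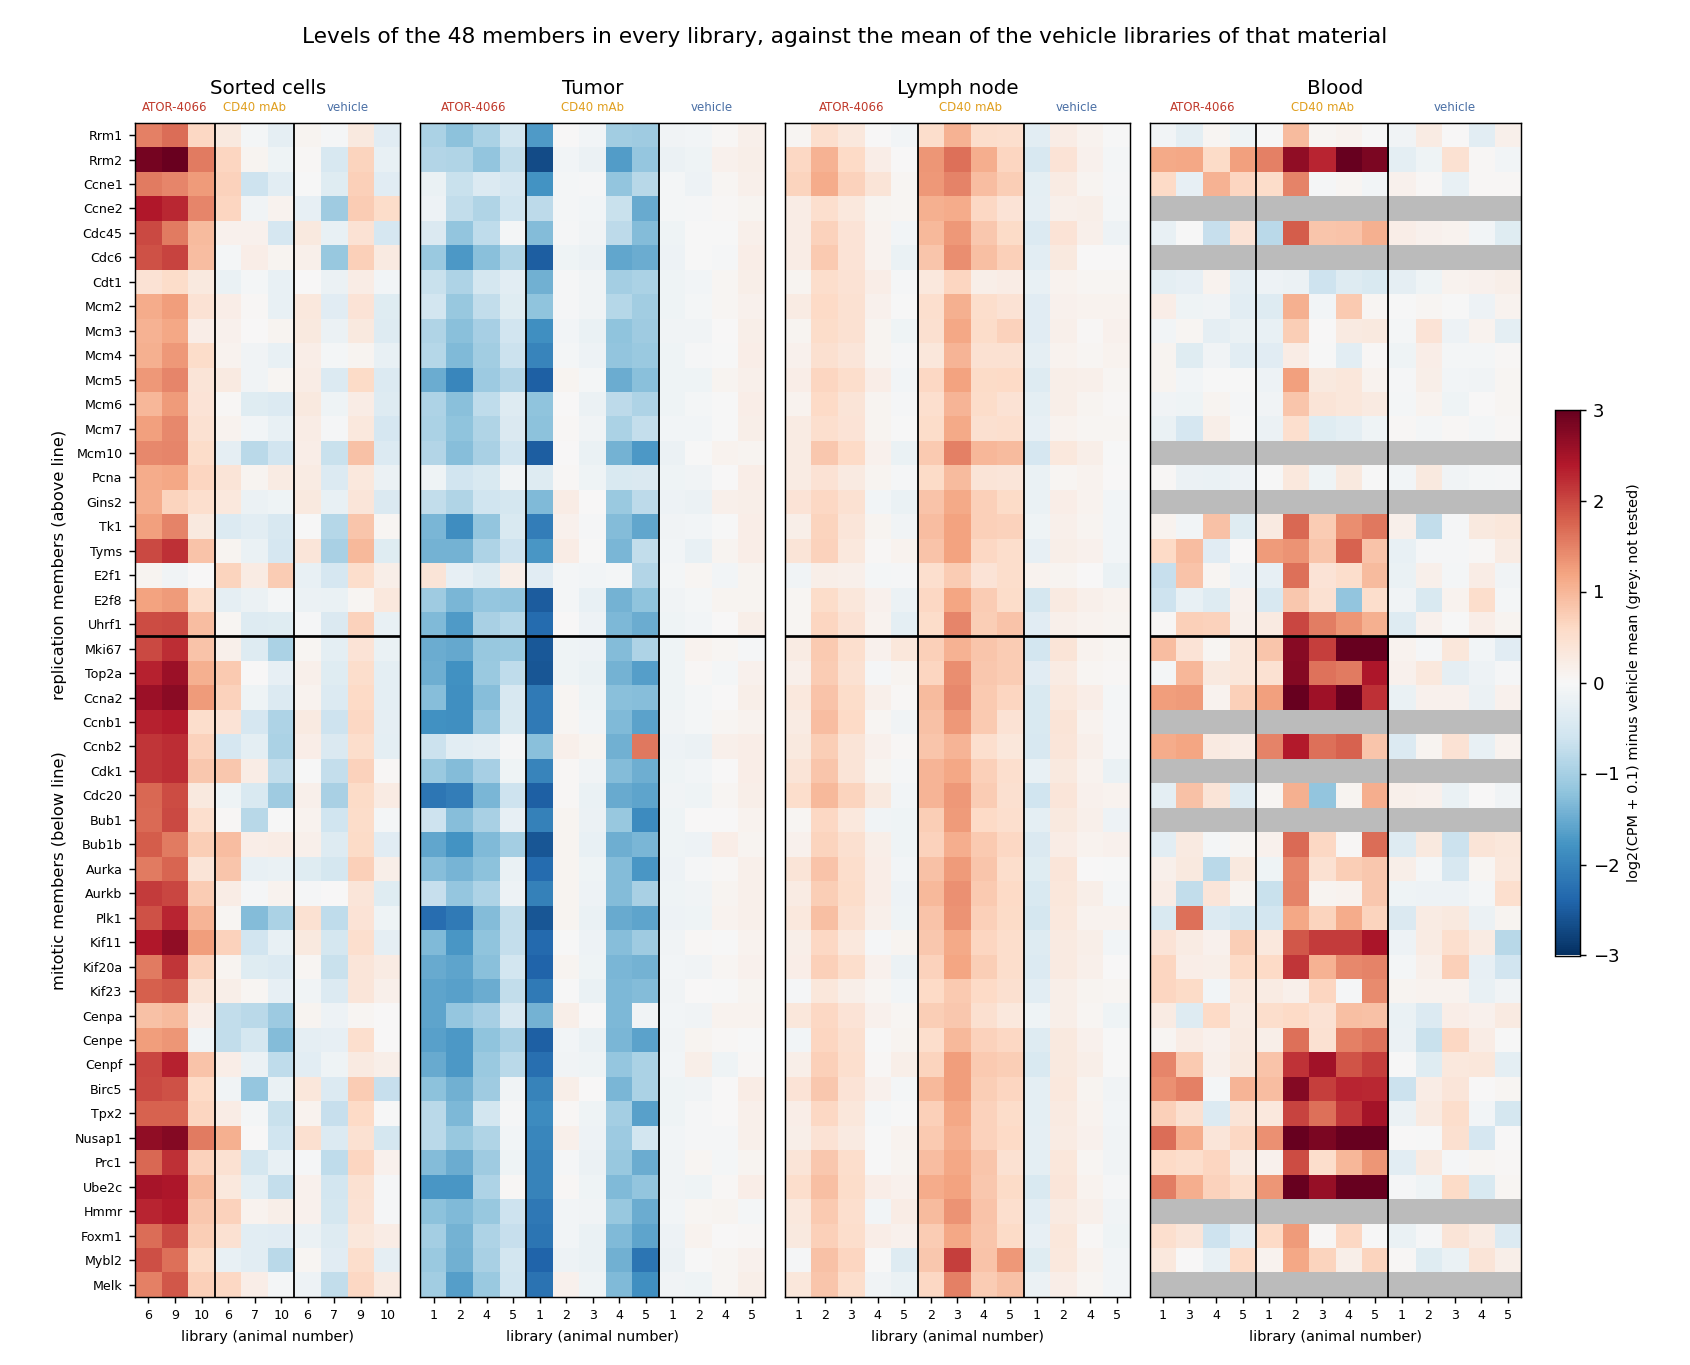
Levels of the 48 members in each of the 50 libraries, as log2(CPM + 0.1) minus the mean of the vehicle libraries of the same material, with replication members above the line and mitotic members below it and grey for members not tested in blood. ATOR-4066 columns are red in sorted cells and blue in tumor, CD40 mAb columns are red in lymph node, and in blood the red of the CD40 mAb columns lies mostly among mitotic members and Rrm2.

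In leukocytes sorted from tumors, ATOR-4066 raised most of the machinery of both phases. Against vehicle, 41 of 48 members rose and none fell, beside 6.76% of all 16667 genes tested that rose. Of the replication members 17 of 21 rose, with a median log2 change of 1.06 over the 21, and of the mitotic members 24 of 27 rose, with a median of 1.58 over the 27. The median of all genes tested was -0.02. Summed over the set, mitotic members had 736 to 1878 CPM in ATOR-4066, 291 to 527 CPM in CD40 mAb and 326 to 594 CPM in vehicle libraries. Replication members summed to 1010 to 1827 CPM in ATOR-4066, 656 to 793 CPM in CD40 mAb and 583 to 904 CPM in vehicle libraries.

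Rrm2 had the largest change of the replication members against vehicle. Rrm2, the regulatory subunit of ribonucleotide reductase (ENSMUSG00000020649, chromosome 12, 24708241 to 24714146, GRCm38), had 119.9, 128.3 and 48.2 CPM in ATOR-4066, 25.3, 17.1 and 14.98 CPM in CD40 mAb and 16.6, 11.6, 26.1 and 13.96 CPM in vehicle cells. All 3 ATOR-4066 libraries lay above all others, with library 10 the lowest of them, and the change against vehicle was 2.53 ± 0.37 (SE, adjusted p = 0.00829). Rrm1, its catalytic subunit, rose by 1.32 ± 0.25 (adjusted p = 0.0123). Of the origin licensing genes, the helicase subunit Mcm4 rose to 118.9 ± 29.4 CPM in ATOR-4066 cells (SD, n = 3), against 59.5 ± 7.38 CPM in vehicle cells (n = 4), a change of 1.00 ± 0.17 (adjusted p = 0.0108). Mcm5, another helicase subunit, whose promoter is printed above, had 136.2, 151.0 and 71.4 CPM in ATOR-4066, 66.5, 51.01 and 57.6 CPM in CD40 mAb and 64.5, 41.4, 82.4 and 41.4 CPM in vehicle cells. Its ATOR-4066 library 10 lay below the highest vehicle library, so the groups overlapped. Pcna, the sliding clamp of DNA polymerases, had 205.2, 213.5 and 147.7 CPM in ATOR-4066, 124.4, 100.8 and 113.1 CPM in CD40 mAb and 113.2, 71.5, 118.8 and 84.7 CPM in vehicle cells, with no overlap between ATOR-4066 and either other group.

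Among the regulators of S phase entry, E2f8, an atypical E2F that represses E2F targets late in S phase, rose by 1.03 ± 0.20 (adjusted p = 0.0138) in ATOR-4066 against vehicle. E2f1, an activating E2F, had 26.6, 23.3 and 25.1 CPM in ATOR-4066, 39.6, 29.7 and 42.3 CPM in CD40 mAb and 21.3, 17.6, 36.1 and 28.2 CPM in vehicle cells. It gave a change of -0.05 (adjusted p = 0.913) in ATOR-4066 against vehicle, the sole negative value of the 48. The other replication members not called were Tk1 (0.97), Mcm10 (1.09) and Gins2 (0.74).

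Among mitotic members, the 4 of smallest p against vehicle were Aurkb, the kinase of the chromosomal passenger complex (1.72 ± 0.29), Ccna2, the cyclin of S phase and early mitosis (2.26 ± 0.39), Cenpf, a kinetochore protein (1.84 ± 0.33), and Top2a, the topoisomerase that untangles sister chromatids (2.07 ± 0.37). Their adjusted p ran from 0.0108 to 0.0122. Mki67, which coats mitotic chromosomes and is the usual marker of cycling cells, had 374.3, 436.3 and 170.7 CPM in ATOR-4066, 105.7, 72.6 and 48.5 CPM in CD40 mAb and 99.2, 77.3, 125.6 and 82.8 CPM in vehicle cells. Top2a had 257.8, 305.3 and 107.7 CPM in ATOR-4066, 88.7, 52.4 and 43.4 CPM in CD40 mAb and 57.2, 39.9, 74.1 and 42.3 CPM in vehicle cells. For both genes each ATOR-4066 library exceeded every other library, and library 10 was again the lowest of the 3. Ccnb1, the cyclin that drives entry into mitosis, had 27.5, 28.6 and 7.87 CPM in ATOR-4066, 7.32, 3.80 and 2.81 CPM in CD40 mAb and 6.59, 3.53, 8.42 and 4.51 CPM in vehicle cells, so that library 10 fell inside the vehicle range. Cdc20 (1.39, adjusted p = 0.0639), Aurka (1.27) and Cenpe (0.92) were the mitotic members not called.

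Related genes outside the 48 moved in the same libraries, where 6.76% of all genes tested rose and 851 of 16667 fell. Of 36 other replication genes 10 rose, among them the histone chaperone Asf1b (2.04) and the checkpoint adaptor Clspn (1.99), and 1 fell, the nuclease and helicase Dna2 (-1.46). Of 43 other mitotic genes 29 rose, among them the condensin subunit Ncaph (2.22), Racgap1 (1.66) and the centriole kinase Plk4 (1.19). Of 11 G1 cyclins, their kinases and related genes, Ccnd1 (cyclin D1) was the only one called. It fell to 34.0 ± 20.5 CPM in ATOR-4066 cells (SD, n = 3), against 311 ± 128 CPM in vehicle cells (n = 4), a change of -3.19 ± 0.55 (adjusted p = 0.0108). Of 16 genes of cell cycle arrest and quiescence 8 rose, among them Ccng2 (1.08), Tob1 (1.39) and the CDK4 and CDK6 inhibitor gene Cdkn2c (1.31).

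Cell type markers moved with these members. Of 15 T cell markers 14 rose in ATOR-4066 against vehicle, with a median of 1.81, and none of the 15 was at 0. Their summed level was 3149 to 6971 CPM in ATOR-4066, 535 to 1208 CPM in CD40 mAb and 1116 to 1732 CPM in vehicle cells. Of 12 macrophage markers 4 fell, with summed levels of 802 to 5012 CPM in ATOR-4066, 6152 to 20170 CPM in CD40 mAb and 8683 to 11040 CPM in vehicle cells. Within the ATOR-4066 group, library 9 had 544 CPM of B cell markers, against 18.3 to 38.9 CPM in the other sorted libraries, and library 6 had 5931 CPM of erythroid markers, against 100.2 to 381 CPM elsewhere. Without haemoglobin genes the erythroid markers summed to 66.8 to 119.5 CPM in ATOR-4066, 31.4 to 59.5 CPM in CD40 mAb and 24.7 to 33.6 CPM in vehicle cells, and Tfrc was the erythroid marker called (1.36 ± 0.22). Fibroblast markers summed to 767 to 1702 CPM in ATOR-4066, 283 to 570 CPM in CD40 mAb and 359 to 636 CPM in vehicle cells. Of that list Thy1, which T cells also express, rose to 1178 ± 480 CPM in ATOR-4066 cells (SD, n = 3), against 328 ± 91.6 CPM in vehicle cells (n = 4), while Dcn and Col3a1 fell. The part of these markers in the members' change was not tested. Without ATOR-4066 library 6 the count of members that rose was 12, without ATOR-4066 library 9 it was 18, and without vehicle library 10, 6 or 7 it was 16, 22 or 27.

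**Figure D2:**
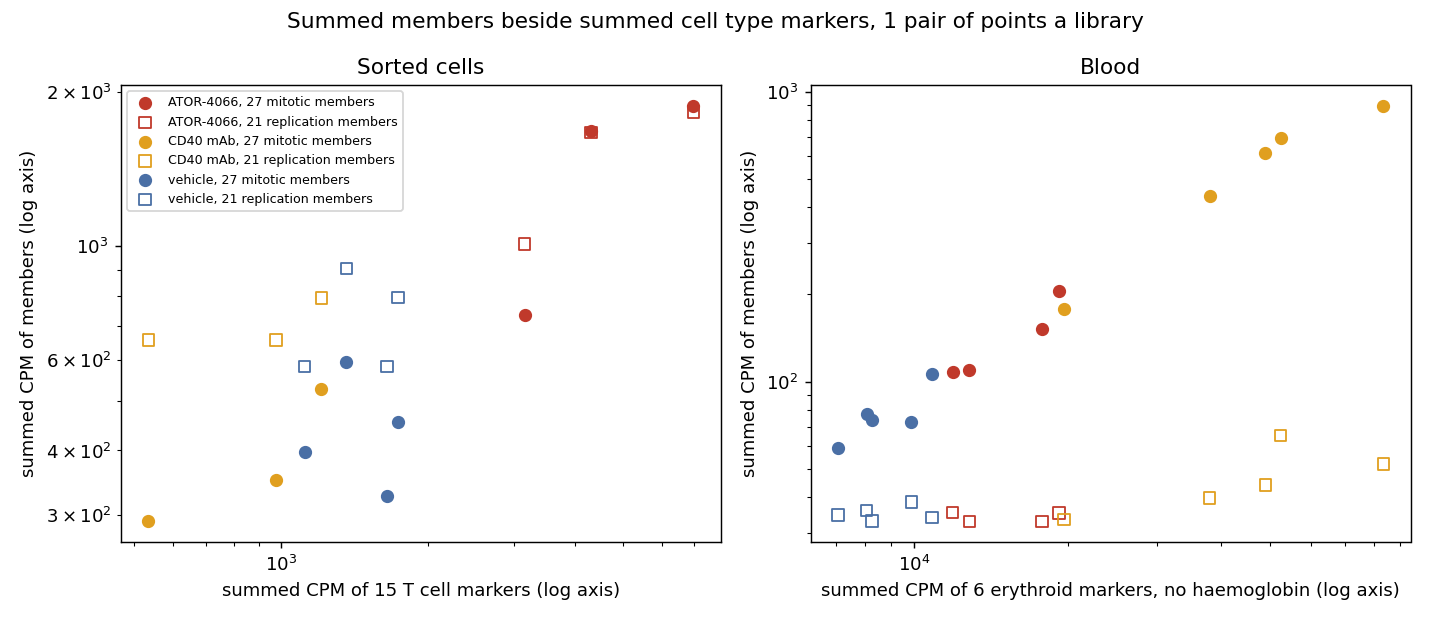
Summed CPM of the 27 mitotic members (filled circles) and of the 21 replication members (open squares) in each library, against the summed CPM of 15 T cell markers in sorted cells and of 6 erythroid markers without haemoglobin genes in blood, all on log axes. In sorted cells the 3 ATOR-4066 libraries have the highest T cell sums, 3149 to 6971 CPM. In blood the mitotic sums reach 896 CPM in CD40 mAb libraries and the replication sums stay at or under 65.4 CPM. Of the 896 CPM, Ube2c gave 604.0 CPM and Nusap1 208.4 CPM, so these sums do not compare the sets gene by gene.

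In the sorted cells no member was called under CD40 mAb. Against vehicle 0 of 48 members were called by edgeR, beside 1.09% of all genes, with medians of -0.07 for replication and -0.19 for mitotic members. At an unadjusted p under 0.05 there was 1 member higher (8.68% of all genes) and 2 lower (10.3% of all genes). DESeq2 and voomLmFit each called 1 member, lower. The 2 replication members of smallest p were E2f1 (0.53 ± 0.23, adjusted p = 0.241) and the replication initiation factor Mcm10 (-0.68). The 2 mitotic members were the centromeric histone Cenpa (-0.88 ± 0.18, adjusted p = 0.0517) and the kinetochore motor Cenpe (-0.86). Cenpa averaged 19.4 ± 2.44 CPM in CD40 mAb cells (SD, n = 3) and 35.7 ± 2.59 CPM in vehicle cells (n = 4).

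Set against each other, the antibodies differed. In ATOR-4066 against CD40 mAb 38 of 48 members were higher and none lower, beside 5.27% of all genes, with 15 of 21 replication members (median 1.21) and 23 of 27 mitotic members (median 1.80). The replication members of smallest p were Rrm2 (2.37 ± 0.41), Mcm4 (1.07 ± 0.19), E2f8 (1.21 ± 0.22) and Uhrf1 (1.91 ± 0.34), the last a factor that keeps DNA methylation through replication. The mitotic ones were Cenpa, which rose to 58.4 ± 15.5 CPM in ATOR-4066 cells against 19.4 ± 2.44 CPM in CD40 mAb cells (SD, n = 3 each; 1.59 ± 0.20, adjusted p = 0.00812), the B-type cyclin Ccnb2 (2.42 ± 0.41), Cenpf (2.07 ± 0.37) and Mki67 (2.11 ± 0.38). E2f1 was again the sole negative member (-0.58, adjusted p = 0.162). Of the other replication genes 17 of 36 rose and of the other mitotic genes 29 of 43. All 15 T cell markers rose in the same comparison. The count of 38 was 1 without CD40 mAb library 10, 2 without CD40 mAb library 7, 11 without ATOR-4066 library 6, 16 without ATOR-4066 library 9 and 0 when the 2 groups were fitted without the vehicle libraries.

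In whole tumor the levels leaned the other way and no member passed the test. In ATOR-4066 against vehicle 0 of 48 members were called by edgeR, beside 1.32% of all genes. The smallest adjusted p of a member was 0.0792. At an unadjusted p under 0.05, 33 members were lower and none higher, beside 12.4% of all genes lower. DESeq2 called 18 members lower, voomLmFit called 40, and the fit of only these 2 groups called 42. The change was negative in 47 of 48 members, with medians of -0.90 for replication and -1.06 for mitotic members and 0.02 for all genes. In 39 members every ATOR-4066 library was below every vehicle library, beside 14.7% of all genes.

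Mcm7 (-0.85 ± 0.26, adjusted p = 0.0825) and Mcm6 (-0.80 ± 0.26, adjusted p = 0.0941), both subunits of the helicase ring, had the smallest p of the replication members. Mcm5 had 67.1, 47.8, 88.3 and 101.6 CPM in ATOR-4066 tumors, 34.2, 197.4, 180.4, 66.4 and 78.1 CPM in CD40 mAb tumors and 172.4, 170.8, 198.8 and 209.0 CPM in vehicle tumors. Rrm2 had 85.1, 83.8, 68.8 and 93.8 CPM in ATOR-4066 tumors, 24.3, 147.4, 140.0, 48.9 and 70.1 CPM in CD40 mAb tumors and 139.3, 143.2, 170.5 and 178.1 CPM in vehicle tumors. For both genes all ATOR-4066 tumors were below all vehicle tumors, while the CD40 mAb tumors spanned both. Pcna overlapped, with 205.2, 149.6, 161.3 and 208.5 CPM in ATOR-4066 tumors, 169.7, 229.1, 202.5, 161.8 and 166.2 CPM in CD40 mAb tumors and 204.2, 207.1, 226.3 and 257.6 CPM in vehicle tumors. E2f1 was the only member with a positive change in ATOR-4066 against vehicle (0.02, adjusted p = 0.966).

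Of the mitotic members, the cytokinesis motor Kif23 (-1.32 ± 0.39, adjusted p = 0.0792) and Mki67 (-1.31 ± 0.39, adjusted p = 0.0793) had the smallest p. Mki67 had 104.0, 100.6, 133.4 and 135.7 CPM in ATOR-4066 tumors, 49.96, 269.1, 262.5, 119.1 and 153.8 CPM in CD40 mAb tumors and 268.2, 315.7, 304.6 and 288.9 CPM in vehicle tumors. Top2a had 202.0, 157.6, 259.3 and 330.3 CPM in ATOR-4066 tumors, 93.7, 509.3, 482.3, 209.0 and 178.0 CPM in CD40 mAb tumors and 513.3, 572.2, 537.8 and 611.5 CPM in vehicle tumors. Ccnb1 had 25.9, 25.6, 40.8 and 67.0 CPM in ATOR-4066 tumors, 21.03, 95.9, 86.1, 36.5 and 29.8 CPM in CD40 mAb tumors and 85.3, 87.9, 94.9 and 99 CPM in vehicle tumors. In all 3 genes CD40 mAb libraries 1, 4 and 5 were low and libraries 2 and 3 lay near the vehicle tumors. Ccnb2 was an exception in CD40 mAb library 5, with 32.9 CPM against 3.97 to 12.2 CPM in the other CD40 mAb tumors and 9.65 to 12.5 CPM in vehicle tumors.

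CD40 mAb against vehicle in tumor gave 0 called members by edgeR, beside 0% of all genes, and 0 by DESeq2 and by voomLmFit. At an unadjusted p under 0.05, 16 members were lower, beside 2.95% of all genes. The medians were -0.64 for replication and -0.78 for mitotic members, beside 0.07 for all genes, and 47 of 48 changes were negative. The 2 members of smallest p in each set were Mcm3 (-0.73 ± 0.30) and the licensing factor Cdt1 (-0.62 ± 0.26) among replication members and the transcription factors Foxm1 (-0.86 ± 0.36) and Mybl2 (-0.98 ± 0.42) among mitotic members, all at an adjusted p of 0.412. The count of 16 was 3 without CD40 mAb library 1, 0 without library 4, 0 without library 5, 45 without library 2 and 38 without library 3. It was 7 without vehicle library 1, 2 without vehicle library 2 and 0 without vehicle library 4 or 5. ATOR-4066 against CD40 mAb gave 0 called members by edgeR, by DESeq2 and by voomLmFit, beside 0.0325% of all genes, and 0 at an unadjusted p under 0.05, beside 10.2% of all genes. The 2 of smallest p in each set were Tyms (-0.52) and E2f1 (0.27) among replication members and Cenpa (-0.60) and Cenpf (-0.52) among mitotic members, with adjusted p from 0.561 to 0.663.

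Outside the 48 members, Btg1, an antiproliferative gene, rose to 456 ± 103 CPM in ATOR-4066 tumors, against 213 ± 24.9 CPM in vehicle tumors (SD, n = 4 each; 1.10 ± 0.24, adjusted p = 0.0490). The CDK inhibitor gene Cdkn1a had 238 ± 46.9 CPM in ATOR-4066 tumors and 74.8 ± 18.2 CPM in vehicle tumors (1.67 ± 0.37, adjusted p = 0.0504). None of 36 other replication genes and none of 43 other mitotic genes was called by edgeR, with 22 and 35 of them past an unadjusted p under 0.05 and medians of -0.68 and -0.94. Fibroblast markers summed to 4910 to 10260 CPM in ATOR-4066 tumors, 8585 to 13200 CPM in CD40 mAb tumors and 11080 to 15560 CPM in vehicle tumors, with 0 of 10 called. Neutrophil markers summed to 52.7 to 229 CPM in ATOR-4066 tumors, 19.7 to 174 CPM in CD40 mAb tumors and 29.0 to 42.1 CPM in vehicle tumors, and 3 of the 7 tested rose in ATOR-4066 against vehicle. CD40 mAb library 5 stood apart in T cell markers (1849 CPM), fat cell markers (1691 CPM) and macrophage markers (18130 CPM). The part of these markers in the members' levels was not tested.

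**Figure D3:**
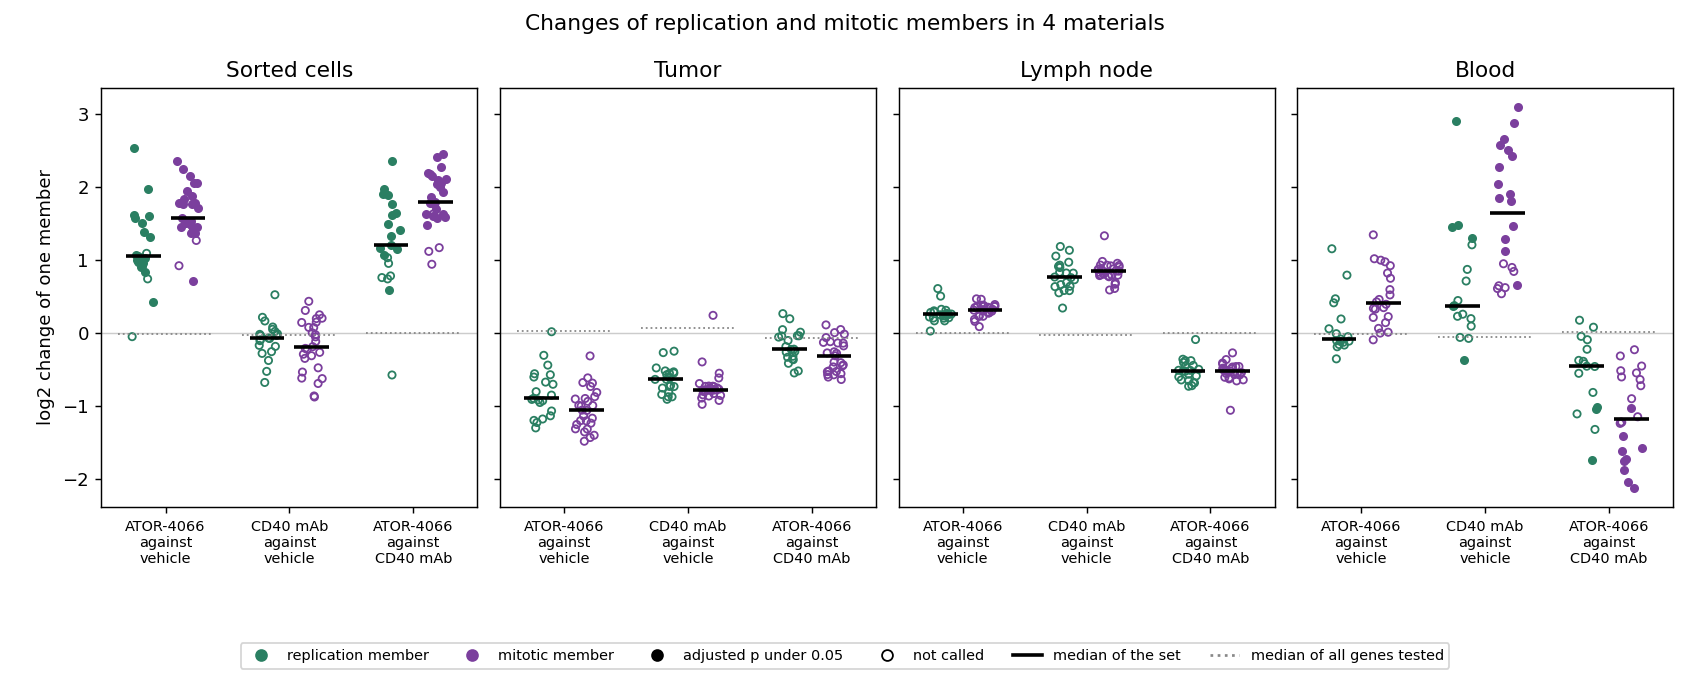
Log2 change of each member in the 12 comparisons (y axis), replication members in green and mitotic members in purple, filled where the adjusted p was under 0.05, with the median of each set (black bar) and of all genes tested (dotted line). Filled points lie in sorted cells in both comparisons of ATOR-4066 and in blood in both comparisons of CD40 mAb, and in lymph node all 48 open points of CD40 mAb against vehicle lie above 0.

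In lymph node the members leaned upwards under CD40 mAb and again none passed the threshold. Against vehicle 0 of 48 members were called by edgeR, beside 0.0643% of all genes, with adjusted p from 0.0512 to 0.158. All 48 were higher at an unadjusted p under 0.05, beside 12% of all genes. The medians were 0.77 for replication and 0.85 for mitotic members, beside -0.02 for all genes. In 47 members every CD40 mAb library exceeded every vehicle library, beside 8.27% of all genes. DESeq2 called 47 members higher, voomLmFit 44, edgeR without a filter on low counts 12 and the fit of only the 2 groups 39.

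The replication members of smallest p were the nucleotide salvage kinase Tk1, with 51.4 ± 8.90 CPM in CD40 mAb and 27.6 ± 2.54 CPM in vehicle nodes (SD, n = 4 each; 0.90 ± 0.16, adjusted p = 0.0512), and E2f1 (0.55 ± 0.10, adjusted p = 0.0512). Rrm2 had 108.3, 143.7, 105.7, 80.3 and 71.0 CPM in ATOR-4066 nodes, 175.3, 220.2, 148.7 and 108.9 CPM in CD40 mAb nodes and 49.9, 93.0, 76.7 and 67.0 CPM in vehicle nodes. Mcm5 had 113.5, 154.1, 141.6, 112.4 and 93.6 CPM in ATOR-4066 nodes, 152.0, 226.2, 147.1 and 149.4 CPM in CD40 mAb nodes and 75.2, 111.2, 109.0 and 102.7 CPM in vehicle nodes. In both genes the CD40 mAb nodes stood above all vehicle nodes, library 3 highest, and the ATOR-4066 nodes overlapped both groups. Pcna had 195.3, 224.1, 198.2, 173.9 and 161.8 CPM in ATOR-4066 nodes, 244.2, 318.9, 216.2 and 211.8 CPM in CD40 mAb nodes and 144.8, 173.0, 177.2 and 167.0 CPM in vehicle nodes.

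The mitotic members of smallest p were the spindle protein Nusap1, with 65.8 ± 10.4 CPM in CD40 mAb and 37.9 ± 5.96 CPM in vehicle nodes (SD, n = 4 each; 0.79 ± 0.13, adjusted p = 0.0512), and Kif23 (0.61 ± 0.12, adjusted p = 0.0513). Mki67 had 172.4, 249.7, 204.4, 160.0 and 185.0 CPM in ATOR-4066 nodes, 238.1, 299.8, 257.6 and 247.9 CPM in CD40 mAb nodes and 99.8, 189.2, 156.2 and 151.0 CPM in vehicle nodes. Top2a had 131.1, 199.7, 162.8, 115.3 and 123.9 CPM in ATOR-4066 nodes, 185.5, 311.9, 207.5 and 201.2 CPM in CD40 mAb nodes and 93.3, 140.2, 122.8 and 120.0 CPM in vehicle nodes. Ccnb1 had 43.9, 69.8, 55.8, 38.1 and 34.1 CPM in ATOR-4066 nodes, 67.6, 90.1, 63.2 and 49.99 CPM in CD40 mAb nodes and 26.8, 47.8, 39.7 and 36.0 CPM in vehicle nodes. Vehicle library 1 was the lowest vehicle node for all 6 of these genes.

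ATOR-4066 nodes lay between the other groups in the medians. Against vehicle 0 of 48 members were called by edgeR, by DESeq2 and by voomLmFit, beside 0% of all genes, and 5 were higher at an unadjusted p under 0.05, beside 6.27% of all genes. All 48 changes were positive, with medians of 0.26 and 0.32 for replication and mitotic members. The 2 of smallest p in each set were the G1 to S cyclin Ccne1 (0.61 ± 0.21, adjusted p = 0.231) and Rrm2 (0.51 ± 0.25) among replication members and Cenpa (0.32 ± 0.13) and Ube2c (0.46 ± 0.19) among mitotic members. Against CD40 mAb 0 of 48 were called by edgeR, beside 0.0161% of all genes, with 43 lower at an unadjusted p under 0.05, beside 5.77% of all genes. DESeq2 called 4 lower and voomLmFit 0. All 48 changes were negative, with medians of -0.52 for both sets, and the 2 of smallest p in each set were E2f1 (-0.52 ± 0.09, adjusted p = 0.163) and Tk1 (-0.64 ± 0.15), and Nusap1 (-0.61 ± 0.13) and Kif23 (-0.52 ± 0.11).

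The other genes of the machinery followed the same direction in CD40 mAb nodes, where all 36 other replication genes and all 43 other mitotic genes had positive changes against vehicle, 34 and 41 of them past an unadjusted p under 0.05, with 0 called by edgeR. Cdc7 (0.46), Chek1 (0.98) and Orc1 led the first list by p, and Hjurp (0.47), Cdca5 (1.09) and Espl1 the other. The 16 genes of arrest and quiescence had a median of -0.04. The median changes were -0.14 for 15 T cell markers, -0.00 for 10 B cell markers and -0.39 for 11 markers of germinal center B cells and plasma cells, with 0 called by edgeR and 0, 0 and 6 past an unadjusted p under 0.05. The germinal center and plasma cell markers summed to 2510 to 5307 CPM in ATOR-4066 nodes, 1996 to 4009 CPM in CD40 mAb nodes and 756 to 2803 CPM in vehicle nodes, with overlap, and the median of these sums was higher in CD40 mAb than in vehicle nodes although the list's median change was negative. Macrophage markers summed to 1579 to 2683 CPM in ATOR-4066 nodes, 1312 to 2475 CPM in CD40 mAb nodes and 2539 to 3314 CPM in vehicle nodes, so that CD40 mAb and vehicle nodes did not overlap. Erythroid markers without haemoglobin, which include Tfrc, summed to 45.7 to 60.3 CPM in ATOR-4066 nodes, 74.3 to 110.4 CPM in CD40 mAb nodes and 47.7 to 63.2 CPM in vehicle nodes, again with no overlap between CD40 mAb and vehicle. Fat cell markers summed to 16.1 to 1807 CPM in ATOR-4066 nodes, 118.5 to 1254 CPM in CD40 mAb nodes and 1169 to 3444 CPM in vehicle nodes. The part of these markers in the members' levels was not tested. With the library labelled vehicle 3 kept in the fit, the CD40 mAb medians were 0.49 for both sets and 15 members were past an unadjusted p under 0.05.

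**Figure D4:**
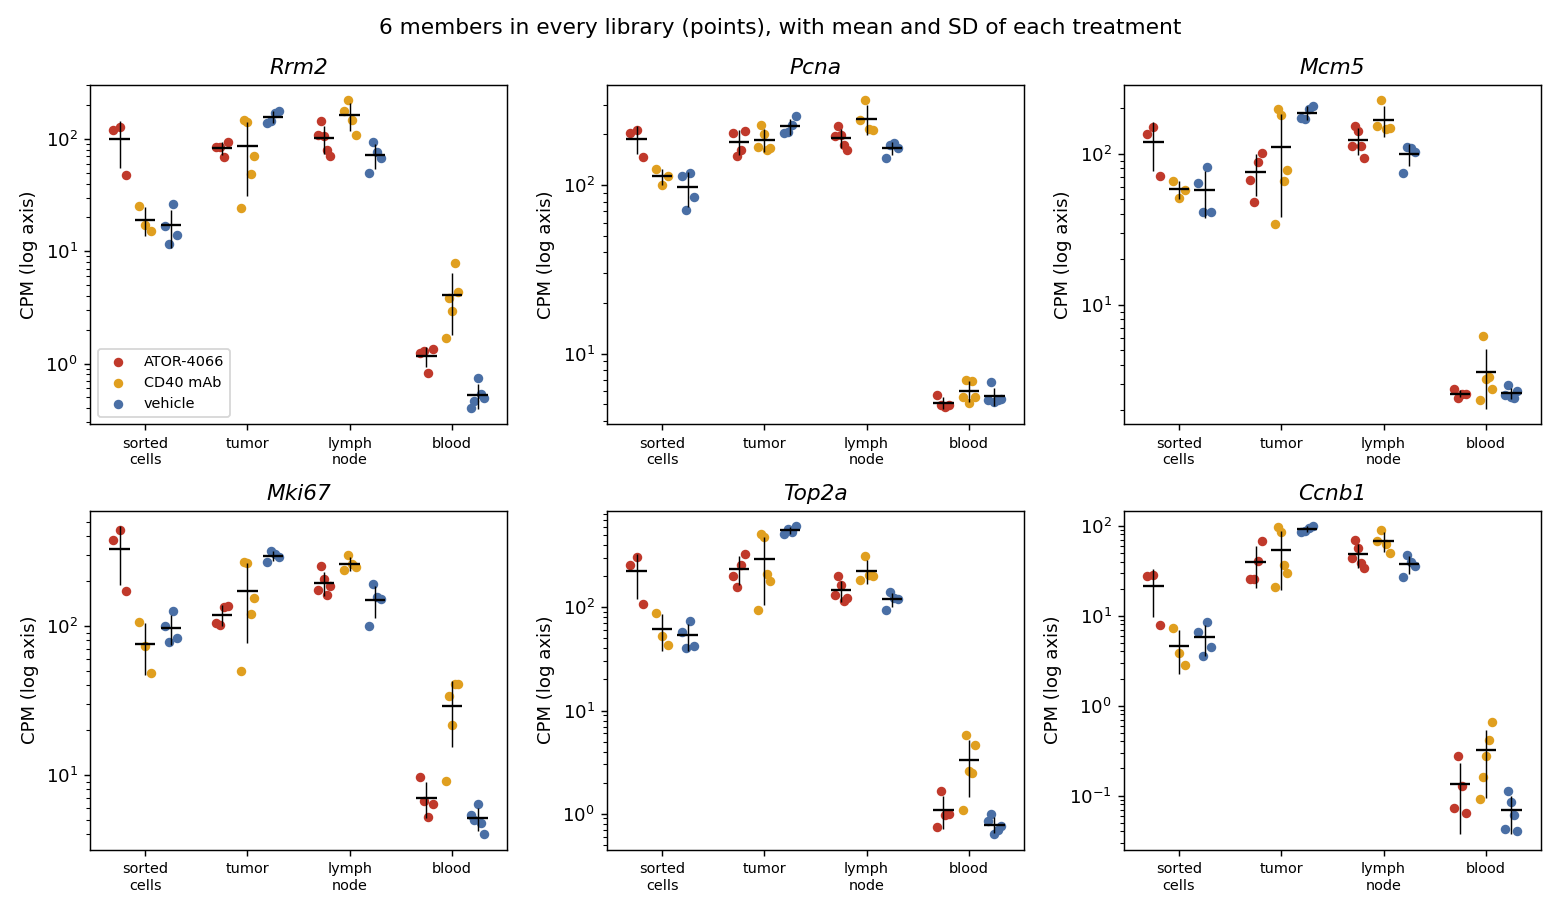
CPM on a log axis of Rrm2, Pcna, Mcm5, Mki67, Top2a and Ccnb1 in each library of the 4 materials, with the mean (bar) and SD (line) of each treatment. Rrm2 reached 119.9 and 128.3 CPM in 2 of 3 sorted ATOR-4066 libraries and stayed under 8 CPM in blood, where Ccnb1 was too low to be tested.

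In blood, on scaled library sizes, CD40 mAb raised 15 of the 22 mitotic members tested and 5 of the 17 replication members tested. The difference between the sets was not tested. Low counts left 39 of the 48 members for testing, 17 replication and 22 mitotic, and each of the 39 also had 4 or more libraries over the count minimum outside the CD40 mAb group. Ccne2, Cdc6, Mcm10, Gins2, Ccnb1, Cdk1, Bub1, Hmmr and Melk were not tested, and Ccnb1 had 3 to 6 counts in ATOR-4066, 3 to 12 in CD40 mAb and 3 to 7 in vehicle libraries. Against vehicle CD40 mAb raised 20 of the 39, beside 22.2% of all 12184 genes tested that rose, and lowered 1, beside 12.4% that fell. The 20 were 15 of 22 mitotic members (median 1.65) and 5 of 17 replication members (median 0.38). The replication share was not far above that of all genes. The median of all genes was -0.05. Scaling weighs heavily in these blood results. Before scaling, Mki67 had 298 to 742 counts in CD40 mAb and 293 to 507 in vehicle libraries, which overlapped. Pcna had 83 to 183 and 302 to 497 counts in that order. Rrm2 had 55 to 94 and 29 to 44 counts, without overlap. Scaled erythroid markers summed to 847900 to 2664000 CPM in CD40 mAb blood, so CPM here are not shares of a library. The rises are relative to the other genes under this scaling.

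The mitotic members that rose were led by Nusap1, Ube2c, Ccna2 and Mki67. Ube2c, the ubiquitin carrier of the anaphase promoting complex, had 115.4, 84.7, 64.4 and 57.6 CPM in ATOR-4066 blood, 100.5, 433.6, 243.3, 604.0 and 375.3 CPM in CD40 mAb blood and 38.6, 36.5, 58.9, 28.9 and 41.6 CPM in vehicle blood, a change of 3.10 ± 0.39 (SE, adjusted p = 1.01e-04) in CD40 mAb against vehicle. Nusap1 had 62.2, 41.6, 25.2 and 29.9 CPM in ATOR-4066 blood, 50.3, 176.0, 138.5, 208.4 and 156.8 CPM in CD40 mAb blood and 19.6, 19.2, 27.2, 13.6 and 19.7 CPM in vehicle blood, a change of 2.88 ± 0.35 (adjusted p = 1.01e-04). All 5 CD40 mAb libraries lay above all vehicle libraries for both genes, and CD40 mAb library 1 was the lowest of the 5. Mki67 had 9.69, 6.69, 5.23 and 6.36 CPM in ATOR-4066 blood, 9.06, 33.8, 21.4, 40.5 and 40.5 CPM in CD40 mAb blood and 5.40, 4.94, 6.35, 4.75 and 3.98 CPM in vehicle blood (2.51 ± 0.33). Ccna2 averaged 11.9 ± 5.59 CPM in CD40 mAb and 1.87 ± 0.226 CPM in vehicle blood (SD, n = 5 each; 2.66 ± 0.33). Top2a had 0.747, 1.65, 0.970 and 1.00 CPM in ATOR-4066 blood, 1.10, 5.78, 2.59, 2.48 and 4.58 CPM in CD40 mAb blood and 0.852, 0.985, 0.631, 0.691 and 0.760 CPM in vehicle blood.

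The 5 replication members that rose were the nucleotide enzymes Rrm2 (2.91 ± 0.33, adjusted p = 1.01e-04), Tyms (1.46 ± 0.29) and Tk1 (1.303 ± 0.345), with Uhrf1 (1.48 ± 0.29) and the helicase subunit Mcm6 (0.37 ± 0.14, adjusted p = 0.0456). Rrm2 had 1.25, 1.28, 0.817 and 1.34 CPM in ATOR-4066 blood, 1.67, 3.82, 2.91, 7.78 and 4.31 CPM in CD40 mAb blood and 0.405, 0.468, 0.751, 0.534 and 0.489 CPM in vehicle blood, with every treated library above every vehicle library. Rrm1, the other subunit of ribonucleotide reductase, was not called (0.26, adjusted p = 0.286), and neither were the other helicase subunits, with changes of -0.07 for Mcm4, -0.06 for Mcm7 and 0.45 for Mcm5 (adjusted p = 0.0872). Mcm5 had 2.75, 2.43, 2.58 and 2.56 CPM in ATOR-4066 blood, 2.34, 6.20, 3.23, 3.31 and 2.78 CPM in CD40 mAb blood and 2.54, 2.94, 2.44, 2.40 and 2.69 CPM in vehicle blood, with library 2 alone far above the rest. Pcna gave 0.10, with 5.71, 4.95, 4.85 and 4.97 CPM in ATOR-4066 blood, 5.57, 6.94, 5.09, 6.87 and 5.57 CPM in CD40 mAb blood and 5.30, 6.83, 5.15, 5.30 and 5.40 CPM in vehicle blood. Cdt1, which loads the helicase and is destroyed once S phase begins, was the member that fell (-0.36 ± 0.14, adjusted p = 0.0479). It had 2.75, 2.84, 3.65 and 2.80 CPM in ATOR-4066 blood, 3.04, 3.02, 2.18, 2.57 and 2.46 CPM in CD40 mAb blood and 2.81, 3.12, 3.65, 3.71 and 3.87 CPM in vehicle blood, groups that overlapped. Its call was lost without any 1 of CD40 mAb libraries 3, 4 and 5 or vehicle libraries 3, 4 and 5, and with RLE scaling.

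Red cell and neutrophil markers rose in the same CD40 mAb blood. All 10 erythroid markers rose against vehicle, with a median of 2.32, and none was at 0. Slc4a1, the band 3 anion exchanger, had 1722 ± 892 CPM in CD40 mAb and 213 ± 64.6 CPM in vehicle blood (SD, n = 5 each; 3.02 ± 0.42), and the transferrin receptor Tfrc, carried by immature red cells, rose by 2.70 ± 0.36. The 6 erythroid markers other than haemoglobin genes summed to 11880 to 19240 CPM in ATOR-4066, 19650 to 83300 CPM in CD40 mAb and 7082 to 10820 CPM in vehicle blood. The haemoglobin share of counts was 78.1 to 88.2 percent in ATOR-4066, 77.5 to 81.2 percent in CD40 mAb and 69.8 to 76.0 percent in vehicle libraries. All 10 neutrophil markers rose (median 2.17), 9 of 10 B cell markers fell (median -0.92) and 0 of 15 T cell markers were called by edgeR, with 1 past an unadjusted p under 0.05. The part of these markers in the members' change was not tested. In both blood and sorted cells the members moved beside marker lists of different cell types, as the plot of summed members and markers shows.

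Other cell cycle genes were also called in CD40 mAb blood, where 22.2% of all 12184 genes tested rose and 12.4% fell. Of 25 other mitotic genes tested 15 rose, led by the securin gene Pttg1 (3.29), the kinetochore gene Spc24 (2.33) and the condensin gene Ncapg (2.44). Of 30 other replication genes tested 4 rose, a smaller share than of all genes, among them Dut (1.03) and Asf1b (1.89), and 1 fell, Dna2 (-0.83). Of 10 G1 genes 3 rose, led by E2f2, which had 452 ± 229 CPM in CD40 mAb and 66.3 ± 14.8 CPM in vehicle blood (SD, n = 5 each; 2.77 ± 0.37). Of 13 genes of arrest and quiescence 6 rose, among them Rb1 (1.72), Cdkn2c (2.65) and Cdkn2d (0.78), and Klf2 fell (-0.46).

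ATOR-4066 blood stayed closer to vehicle. Against vehicle 0 of 39 members were called by edgeR, beside 0.435% of all genes, with 8 higher at an unadjusted p under 0.05, beside 10.4% of all genes. DESeq2 called 1 and voomLmFit 5, all higher. By smallest p in each set, the leading 2 were Rrm2 (1.16 ± 0.35, adjusted p = 0.149) and Ccne1 (0.80 ± 0.37) among replication members and, among mitotic members, the survivin gene Birc5 (1.35 ± 0.44, adjusted p = 0.171) and Nusap1 (1.00 ± 0.34). Against CD40 mAb 12 of 39 members were lower in ATOR-4066 blood, beside 10.8% of all genes. They were 3 of 17 replication members, Rrm2 (-1.75 ± 0.34), Tyms (-1.05 ± 0.32) and Uhrf1 (-1.01 ± 0.32), and 9 of 22 mitotic members, led by Mki67 (-2.05 ± 0.36, adjusted p = 0.00526), Nusap1 (-1.88 ± 0.36), Ube2c (-2.13 ± 0.41) and Ccna2 (-1.73 ± 0.35). Tk1, the replication member next by p, was at -1.11 (adjusted p = 0.0685). Of the erythroid markers 5 of 10 fell and of the neutrophil markers 6 of 10. The count of 12 was 7 without ATOR-4066 library 4, 22 without CD40 mAb library 1 and 8 without CD40 mAb library 2 or 4. It was 0 with the replicate number as a block, a number that different animals share across treatments.

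Whether a drug effect differed between materials was tested as an interaction over all 50 libraries and 21410 genes with voomLmFit, and all 48 members were in that fit. The ATOR-4066 effect was more positive in sorted cells than in tumor for 45 members, 19 replication (median difference 2.05) and 26 mitotic (median difference 2.67), beside 4.94% of all genes. Top2a differed by 3.28 ± 0.56, the spindle motor Kif11 by 3.33 ± 0.55 (adjusted p = 1.81e-04) and Rrm1 by 2.20 ± 0.40, while E2f1 differed by 0.02 ± 0.31. The ATOR-4066 effect was more negative in tumor than in lymph node for 34 members, 14 replication and 20 mitotic, beside 4.08% of all genes, with Cenpa at -1.37 ± 0.30 (adjusted p = 0.00534). Between lymph node and blood 0 members differed by voomLmFit, beside 0.883% of all genes, and 0 at an unadjusted p under 0.05. With edgeR the count was 0 as well.

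The CD40 mAb effect was more negative in tumor than in lymph node for 45 members, all 21 replication and 24 mitotic, beside 3.84% of all genes, with Ccne1 at -1.93 ± 0.33 and Foxm1 at -1.94 ± 0.34 (adjusted p = 0.00195 each). With edgeR in place of voomLmFit, 1 member passed this test and 13 passed that of ATOR-4066 between tumor and lymph node. Between sorted cells and tumor 0 members differed by voomLmFit in the CD40 mAb effect, beside 0.402% of all genes, with 9 at an unadjusted p under 0.05 and 0 called by edgeR. Between lymph node and blood the CD40 mAb effect was more positive in lymph node for Pcna (0.59 ± 0.21) and Mcm7 (0.88 ± 0.33), beside 7.86% of all genes. It was more negative there for Nusap1 (-1.84 ± 0.38), Ube2c (-1.86 ± 0.44), Mki67 (-1.24 ± 0.42) and Ccne2 (-1.93 ± 0.64), beside 15% of all genes. Ccne2 rests on 1 to 23 counts in the blood libraries.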

How the data were processed

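RNA was measured by sequencing of polyA RNA with a stranded mRNA kit, per the labels' protocols. The authors deposited 1 merged table of estimated counts per gene, made with salmon per the deposited table's name, and the submitters' processing notes list STAR 5.1 and GRCm38. No label or header states the annotation or the quantification settings. Of the deposited estimated counts 10.98 percent were not whole and were rounded.

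Groups came from tissue and treatment labels. Each material was fitted separately with edgeR 4.0.16 (R 4.3.3), using TMM scaling, filterByExpr (minimum count 10, minimum total 15) and the quasi-likelihood test with 3 treatments, and p-values were adjusted over all genes by the Benjamini-Hochberg method at 0.05. The SE is the size of the log2 change divided by the square root of F. Drug effects were compared between materials with voomLmFit (edgeR, limma 3.58.1), with sample weights and the animal as a random block. Scripts were tested on simulated data. Alternatives were DESeq2 1.42.0, RLE scaling, voomLmFit, no filter, 2 groups only, a replicate block, each library left out, and the 2 left-out libraries kept. In blood, haemoglobin genes were also removed before scaling. The labels do not say more of how replicates were raised, so p-values measure the spread between these libraries.

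Members and lists were chosen with earlier results of these data known. Named genes were Mki67, Top2a, Rrm2, Pcna, Mcm5 and Ccnb1 in each material, the 4 replication and 4 mitotic members of smallest p in a comparison with a called member (2 of each otherwise), members called against most, and 3 genes of smallest p of the other lists, of which 1 is not reported here. Genes named as not called or as positive or negative exceptions, the tumor levels of Ccnb2, and the interaction examples were chosen after their values were seen.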

Additional observations from a re-analysis of the deposited data

Results flagged for a closer look

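Of 60 groups of 4 or 5 libraries checked for a library far from the rest, 5 held one, and chance alone flags about 1 in 20 groups. Mcm5 had 226.2 CPM in CD40 mAb lymph node library 3, and the nearest other library had 152.0 CPM. In blood, Mcm5 had 6.20 CPM in CD40 mAb library 2, against 3.31 CPM in the nearest. Rrm2 had 0.817 CPM in ATOR-4066 blood library 4, the lowest, against 1.25 CPM in the nearest. Pcna had 5.71 CPM in ATOR-4066 blood library 1, against 4.97 CPM in the nearest, and 6.83 CPM in vehicle blood library 2, against 5.40 CPM in the nearest.

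Effects that differed between materials in the interaction test made up the other results here. The ATOR-4066 effect was more positive in sorted cells than in tumor in 45 of 48 members, beside 4.94% of all genes. It was more negative in tumor than in lymph node in 34 members, beside 4.08% of all genes. The CD40 mAb effect was more negative in tumor than in lymph node in 45 members, beside 3.84% of all genes. Between lymph node and blood, 2 of 48 members were more positive in lymph node, beside 7.86% of all genes. Another 4 of 48 were more negative there, beside 15% of all genes. Both were smaller shares than of all genes.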

How the results depend on the processing

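In sorted cells the 41 members higher in ATOR-4066 than in vehicle became 12 to 46 when 1 library was left out, and the 38 higher than in CD40 mAb became 1 to 45, 0 with only the 2 groups and 19 with a replicate block. CD40 mAb against vehicle there gave 1 lower member in place of 0 with DESeq2, no filter, voomLmFit and only the 2 groups. In tumor the 0 lower members of ATOR-4066 against vehicle became 18 with DESeq2, 40 with voomLmFit and 42 with only the 2 groups. In lymph node the 0 higher members of CD40 mAb against vehicle became 47 with DESeq2, 44 with voomLmFit, 12 with no filter, 39 with only the 2 groups and 0 to 1 with 1 library left out, and the 0 lower of ATOR-4066 against CD40 mAb became 4 with DESeq2. In blood the 0 higher members of ATOR-4066 against vehicle became 1 with DESeq2, 5 with voomLmFit and 5 with only the 2 groups. CD40 mAb against vehicle gave 18 to 26 higher members in place of 20 with 1 library left out, and its 1 lower member became 0 with DESeq2, RLE scaling, voomLmFit and the replicate block and 0 to 1 with 1 library left out. The 12 lower members of ATOR-4066 against CD40 mAb became 7 to 22 with 1 library left out and 0 with the replicate block. The causes were not tested.

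Of the interactions, ATOR-4066 between tumor and lymph node went to 13 of 34 members with edgeR, and CD40 mAb between tumor and lymph node to 1 of 45. CD40 mAb between sorted cells and tumor gave 2 in place of 0 without sample weights. Between lymph node and blood the 2 more positive became 0 and the 4 more negative became 2 without weights, and 8 were more negative with edgeR. E2f1 in CD40 mAb against vehicle lymph nodes turned to -0.34 with vehicle library 3 kept.

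The replicate numbers showed no clear pairing of libraries. Libraries of different treatments were correlated over genes after the treatment mean was subtracted. Same-numbered libraries correlated from -0.0612 to 0.109 in sorted cells, -0.343 to 0.360 in tumor, -0.386 to 0.311 in lymph node and -0.223 to 0.136 in blood. Their medians in that order were -0.00969, -0.0766, -0.0316 and 0.00413. For libraries of different numbers the medians were -0.0014, 0.0241, 0.0173 and -0.00851. With the block, 38 members were higher in ATOR-4066 than in vehicle sorted cells and 20 were higher in CD40 mAb than in vehicle blood. Low counts limit the blood results, where 9 members could not be tested. Some members called higher in CD40 mAb blood also had few counts. Prc1 had 5 to 17 counts in CD40 mAb and 9 to 14 in vehicle libraries, and Kif20a 7 to 19 and 5 to 18. Others had many, as Ube2c did with 3305 to 8181 and 2259 to 3625 counts.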
